A study of Mus musculus with 3 samples.

Results

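The Ikaros zinc finger family was examined as its 5 mouse genes, Ikzf1 (Ikaros), Ikzf2 (Helios), Ikzf3 (Aiolos), Ikzf4 (Eos) and Ikzf5 (Pegasus), found by their symbols among the 44788 genes of the deposited count table. RNA had been sequenced in 3 libraries of T lymphocytes from the spleens of 6 to 8 week old female BALB/c mice, taken from the cell suspension with beads against CD90.2 and cultured with LZ-8, an immunomodulatory protein of the fungus Ganoderma lucidum, for 15 h. All 3 libraries belong to this 1 group, so levels are compared between genes and between libraries, and nothing here measures an effect of LZ-8. Whether each replicate had its own mice or its own culture is not in the labels, so differences between the libraries may be technical. The p-values below set the libraries against counting noise or rest on the sign of a ratio in the 3 libraries. They do not reach beyond these samples.

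Ikaros family proteins are transcription factors of lymphocytes. Their amino-terminal zinc fingers bind DNA, and a pair of carboxy-terminal fingers lets members bind each other, so that the protein pool of a cell holds mixed dimers. They recruit chromatin complexes, among them the NuRD remodelling and deacetylase complex, and are best known in T cells for restraining cytokine genes such as Il2 and for stabilising regulatory T cells.

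The coding DNA of an amino-terminal finger is shown because members are known to be most alike in their fingers. The sequences give amino-terminal finger 2, of the DNA-binding set, in the GENCODE M21 principal transcript (GRCm38, coding strand, 5′ to 3′). Capitals mark the codons of the cysteines and histidines that hold the zinc ion.
Ikzf1: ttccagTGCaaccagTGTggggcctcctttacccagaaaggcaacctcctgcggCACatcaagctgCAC
Ikzf2: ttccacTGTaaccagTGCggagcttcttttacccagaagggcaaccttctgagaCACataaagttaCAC
Ikzf3: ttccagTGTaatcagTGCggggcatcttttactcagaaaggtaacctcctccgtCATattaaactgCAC
Ikzf4: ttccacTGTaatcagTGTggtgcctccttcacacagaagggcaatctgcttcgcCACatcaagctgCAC
Ikzf5: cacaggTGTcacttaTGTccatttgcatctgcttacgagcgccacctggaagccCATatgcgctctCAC

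These stretches of 69 bases lie in exon 5 of 8 for Ikzf1 (chr11:11754018-11754086, plus strand), Ikzf2 (chr1:69570581-69570649, minus strand), Ikzf3 (chr11:98488940-98489008, minus strand) and Ikzf4 (chr10:128640229-128640297, minus strand). For Ikzf5 the stretch lies in exon 4 of 4 (chr7:131392501-131392569, minus strand). Ikzf1 matched Ikzf2, Ikzf3 and Ikzf4 at 56, 57 and 58 of the 69 bases. By the cysteine and histidine spacing searched for, Ikzf5 has 5 fingers, 3 of them amino-terminal, where each of the other members has 6, 4 of them amino-terminal. Its finger 2 is thus set beside the others by order alone and need not be the equivalent finger; it matched Ikzf1 at 28 bases. In the first carboxy-terminal finger Ikzf5 matched Ikzf1 at 46 of 69 bases.

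The longest unbroken identical run between any pair of members in this finger was 15 bases, between Ikzf1 and Ikzf4. Over whole transcripts, 3 stretches of 31 bases were shared between Ikzf2 and Ikzf4 and no other pair of members shared any.

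The whole genes span chr11:11685003-11772926 on the plus strand for Ikzf1 and, on the minus strand, chr1:69531214-69687245 for Ikzf2, chr11:98464902-98546031 for Ikzf3 and chr10:128630843-128645991 for Ikzf4 (GRCm38). Ikzf5 overlaps another gene. Its merged exons span 5721 bases of chr7:131388652-131410521 on the minus strand, and 84.5% of them are also exon of a gene on the opposite strand. Nearly all of that overlap, 4652 bases, comes from 1 long annotated transcript of Pstk, a kinase gene of selenocysteine synthesis. Whether counting used the strand is not stated in the sources used here, so reads of Ikzf5 and Pstk cannot be told apart over those bases. Pstk was listed with 152, 120 and 118 reads in replicates 1, 2 and 3, between 23.4% and 26.1% of the Ikzf5 reads. The exon overlap with other genes was 0% for Ikzf1 and Ikzf3, 1.24% for Ikzf2 and 0.617% for Ikzf4.

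The libraries held 12669690 to 19041670 counts. Levels are in CPM (counts per 1000000 counts), and a gene with no read could still have stood at 0.158 CPM in replicate 1, 0.237 CPM in replicate 2 or 0.204 CPM in replicate 3 (the level of 3 counts). Beside the T cell label stand 12 T cell markers, chosen like all lists here with earlier results of these data known. All 12 exceeded 100 CPM, against 5.74% of all genes at or above that level, and they summed to 5656, 5607 and 5752 CPM. B cells, which also use Ikzf1 and Ikzf3, were represented by 12 markers that summed to 25.1, 21.2 and 22.4 CPM, with Cd79a at 1.89, 1.74 and 1.70 CPM. Of these 12, 8 reached 1 CPM, against 30.2% of all genes, and the highest stood at 4.91 CPM. Of 56 markers of other blood cells, the 12 of B cells included, 15 reached 1 CPM, against the same 30.2%. No read in any library was found for 13 of the 56, none of them a B cell marker. The highest were Bst2, from the dendritic cell list, at 55.7 CPM and Eomes, from the natural killer cell list, at 17.5 CPM. Which cells these reads came from was not tested.

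All 5 family genes were present in every library, from 459 to 10139 reads each. Together they took 936, 941 and 892 CPM in replicates 1, 2 and 3, or 0.0923% of all reads. In bulk RNA fewer cells of a type and less RNA per cell cannot be told apart. Genes at or above 1 CPM made up 30.2% of the table and those at or above 100 CPM made up 5.74%, so 5 of 5 members were in the first class and 2 of 5, Ikzf1 and Ikzf3, in the second.

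**Figure D1:**
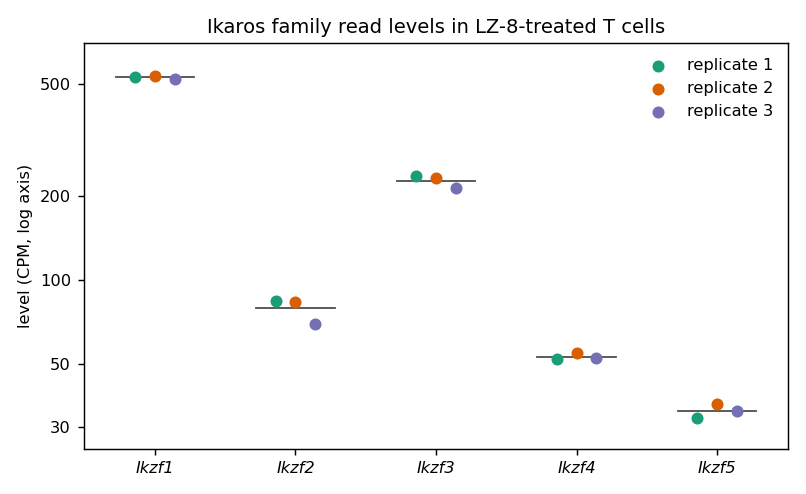
Level of each family gene (vertical axis, CPM, log scale) in replicates 1, 2 and 3 (points), with the mean of the 3 libraries as a line. Ikzf1 sits near 530 CPM in all 3 libraries, and Ikzf2 and Ikzf3 are lowest in replicate 3.

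Ikzf1, the founding member and a regulator of lymphocyte development and of T cell activation thresholds, had 532, 535 and 522 CPM in replicates 1, 2 and 3. Its mean was 530 ± 6.83 CPM (SD, n = 3), and the coefficient of variation of 1.29% was close to the 1.12% that counting alone gives. It held 56.9% of the family's reads in replicate 1, with an exact Clopper-Pearson 95% interval of 56.2 to 57.6%. In replicate 2 it held 56.8% (55.9 to 57.7%), and in replicate 3 58.5% (57.7 to 59.4%). More than 1 in 2 family reads thus came from Ikzf1 in each library.

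Ikzf3, which is known for limiting Il2 expression in Th17 cells and for its role in B cells, had 235, 232 and 213 CPM. The mean was 227 ± 11.6 CPM (SD, n = 3), with replicate 3 the lowest. It was second to Ikzf1 in reads and held 25.1% (24.4 to 25.7%), 24.6% (23.8 to 25.4%) and 23.9% (23.2 to 24.6%) of the family's reads.

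Ikzf2 is a T cell member that most Foxp3-positive regulatory T cells of the thymus carry. It had 84.2, 83.8 and 69.9 CPM in replicates 1, 2 and 3, a mean of 79.3 ± 8.15 CPM (SD, n = 3). Its coefficient of variation, 10.3%, was the widest of the family and stood against 2.89% from counting. Ikzf2 held 9.0% (8.58 to 9.43%), 8.90% (8.40 to 9.43%) and 7.84% (7.38 to 8.31%) of the family's reads, and its interval in replicate 3 lay below those in replicates 1 and 2.

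Ikzf4, a corepressor partner of Foxp3 in regulatory T cells, had 52.4, 54.9 and 52.7 CPM, a mean of 53.3 ± 1.36 CPM (SD, n = 3). Its coefficient of variation of 2.56% did not exceed the 3.52% from counting. Ikzf5, the most divergent member, had 32.1, 36.2 and 34.2 CPM, a mean of 34.2 ± 2.04 CPM (SD, n = 3), subject to the Pstk overlap given above. Ikzf4 held 5.59 to 5.90% of the family's reads and Ikzf5 3.43 to 3.85%.

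Reads depend on transcript length, so the order of the members was read per kilobase (kb). Per kb of merged exons, Ikzf1 stood at 92.2, 92.6 and 90.4 CPM, Ikzf3 at 26.8, 26.5 and 24.4 CPM and Ikzf4 at 8.73, 9.15 and 8.78 CPM in replicates 1, 2 and 3. Ikzf2 stood at 7.25, 7.22 and 6.02 CPM per kb and Ikzf5 at 5.62, 6.33 and 5.99 CPM per kb. Every value of Ikzf5 per kb, here and below, is subject to its overlap with other genes, mainly Pstk. That overlap covers 84.5% of its merged exons, and how reads there were counted is not known. The ranges of Ikzf1, Ikzf3, Ikzf4 and Ikzf2 did not overlap. Those of Ikzf2 and Ikzf5 did, although Ikzf2 was above Ikzf5 within each library, by little in replicate 3.

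The order of Ikzf2 and Ikzf4 depends on length. Ikzf2 had 1.48 times the reads of Ikzf4 (log2 ratio 0.57 ± 0.14, SD, n = 3, higher in 3 of 3 libraries), but its merged exons are 11613 bases long against 5995 for Ikzf4, and per kb the log2 ratio turned to -0.39. With the longest annotated transcript as the length, 9278 bases for Ikzf2 and 5150 for Ikzf4, it was -0.28. The mean log2 ratios of the other 9 of 10 pairs kept their sign on all 3 scales, but for Ikzf2 and Ikzf5 the order turned in replicate 3 per kb of the longest transcript (7.54 against 7.73 CPM per kb). Ikzf1 exceeded Ikzf3 by 3.55-fold per kb of merged exons and by 2.09-fold per kb of the longest transcript, since the merged exons of Ikzf3 (8754 bases) are much longer than its longest transcript (4607 bases). Ikzf1 exceeded Ikzf4 by 10.3-fold, Ikzf2 by 13.5-fold and Ikzf5 by 15.3-fold per kb of merged exons, the last subject to the Pstk overlap. On the read ratios of each of the 10 pairs an exact two-sided sign-flip permutation test gave p = 0.25 before and after adjustment over the pairs, the smallest p that 3 libraries allow, with 3 of 3 libraries on the same side.

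**Figure D2:**
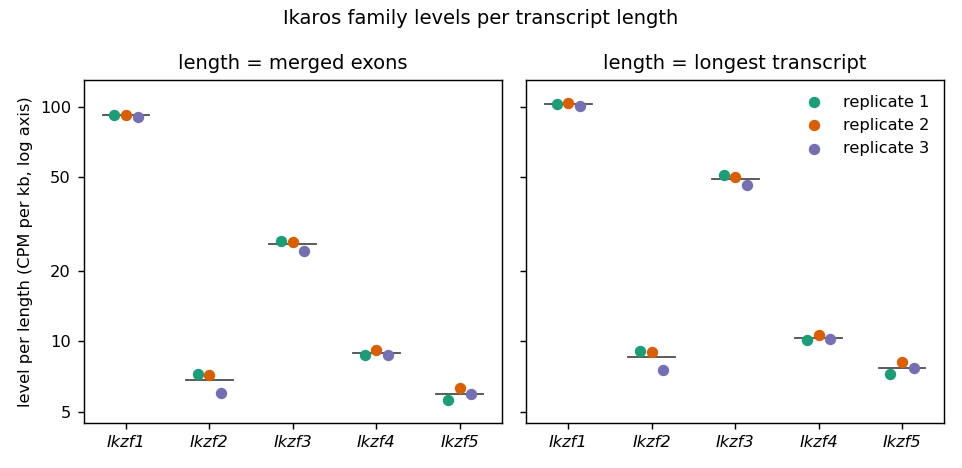
Level per length of each family gene (vertical axes, CPM per kb, log scale) with merged exons (left) or the longest annotated transcript (right) as the length; points are replicates 1, 2 and 3 and lines their mean. Ikzf4 lies above Ikzf2 in both panels, and Ikzf2 and Ikzf5 overlap.

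Among genes of at least 1 CPM with an exon length (12323 genes, median 8.36 CPM per kb), Ikzf1 ranked 597th and Ikzf3 2503rd by level per kb. Ikzf4 (5948th), Ikzf2 (6836th) and Ikzf5 (7224th) lay near the median. Against 32 other transcription factors of T cells, 3 stood above Ikzf1 per kb of merged exons, namely Irf4, Tcf7 and Myc. Ets1, at 87.9 ± 1.45 CPM per kb (SD, n = 3), lay just below the 91.7 ± 1.18 CPM per kb of Ikzf1, but this place depends on the length used. Per kb of the longest transcript Ikzf1 ranked 7th, at 103 CPM per kb, with Satb1 (209.9 CPM per kb), Ets1 (147 CPM per kb) and Stat5a (144 CPM per kb) also above it. Ikzf3, at 25.9 ± 1.33 CPM per kb, was next to Bcl11b, a factor of T cell identity, at 27.2 ± 0.329 CPM per kb. Ikzf4 (8.89 ± 0.227 CPM per kb), Ikzf2 (6.83 ± 0.701) and Ikzf5 (5.98 ± 0.357) lay among Gata3, the Th2 regulator (8.22 ± 0.158), Zeb1 (6.07 ± 0.331) and Tox (5.31 ± 0.136). Per kb of merged exons the mean of Bcl11b lay within 1 SD of that of Ikzf3, and that of Zeb1 within 1 SD of that of Ikzf5. Per kb of the longest transcript they lay apart, with Ikzf3 at 49.2 and Bcl11b at 27.2 CPM per kb, and Ikzf5 at 7.72 and Zeb1 at 10.7 CPM per kb.

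**Figure D3:**
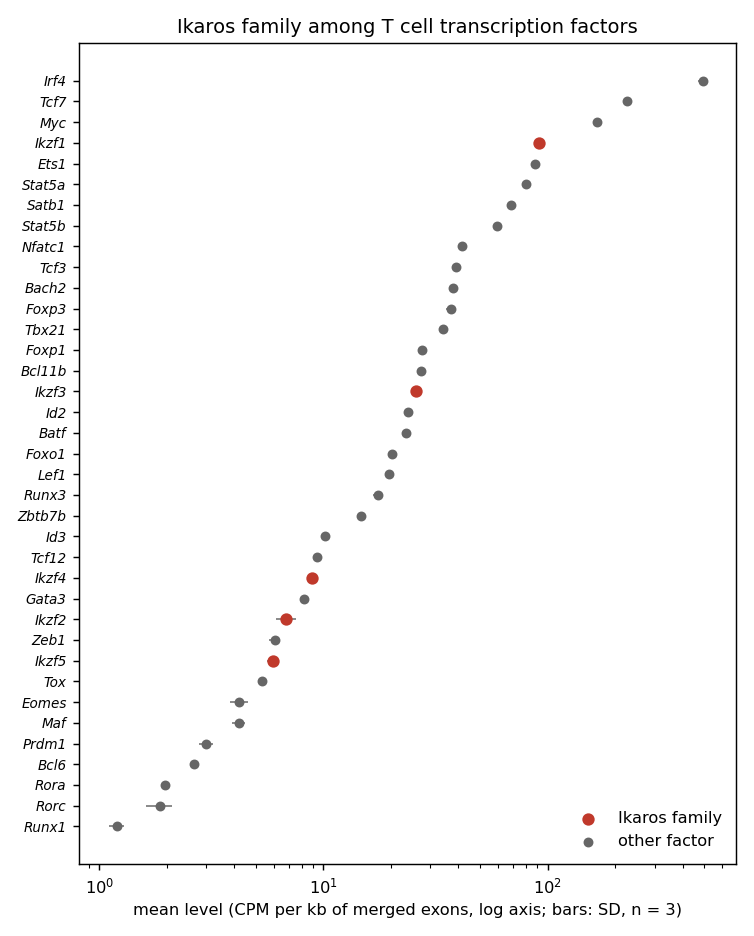
Mean level per kb of merged exons (horizontal axis, CPM per kb, log scale; bars are the SD over 3 libraries) of the 5 family genes (red) and 32 other T cell transcription factors (grey). Ikzf1 is the 4th of 37, Ikzf3 the 16th, and Ikzf4, Ikzf2 and Ikzf5 the 25th, 27th and 29th. The place of Ikzf5 is subject to its overlap with Pstk.

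The replicates were then compared gene by gene. The likelihood-ratio test of edgeR was run at a dispersion of 0, so it sets the libraries against counting noise and compares no conditions. In it, 13.7% of 13500 genes differed between the libraries at an adjusted p under 0.05 (Benjamini-Hochberg over all genes tested). Of the family, 2 of 5 passed, namely Ikzf2 and Ikzf3. Ikzf2 spanned 0.26 log2 units (adjusted p = 0.000168) and Ikzf3 0.13 log2 units (adjusted p = 0.00475). Ikzf1 spanned 0.03 (adjusted p = 0.686), Ikzf4 0.07 (adjusted p = 0.771) and Ikzf5 0.18 log2 units (adjusted p = 0.333).

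Both genes that differed were lowest in replicate 3, as was Ikzf1, so 3 of 5 members were lowest there against 34.8% of all tested genes. The level of Ikzf2 in replicate 3 was 83.2% of its mean in replicates 1 and 2, and that of Ikzf3 was 91.5%. The corresponding values were 97.8% for Ikzf1, 98.2% for Ikzf4 and 100.2% for Ikzf5. Both still differed without replicate 1 (adjusted p = 0.00193 for Ikzf2 and 0.0363 for Ikzf3, where 8.49% of all tested genes differed) and without replicate 2 (0.000253 and 0.00305, where 9.02% did). Without replicate 3 neither passed, with adjusted p = 0.98 for Ikzf2 and 0.858 for Ikzf3, where 5.6% of all tested genes did. Genes that differed and were lowest in replicate 3 made up 4.36% of all tested. The test calls abundant genes more readily, so genes of like level give a closer background: 16.9% of genes between 50 and 100 CPM differed (Ikzf2, Ikzf4), 37.2% between 200 and 400 CPM (Ikzf3), 52% between 400 and 800 CPM (Ikzf1) and 10.3% between 20 and 50 CPM (Ikzf5). The median span over all tested genes was 0.17 log2 units, which that of Ikzf3 did not reach. That median includes 5891 genes under 20 CPM, where counting noise alone is wider, and no median span was taken for genes at the level of Ikzf3.

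Foxp3, the defining factor of regulatory T cells, had 164, 166 and 179 CPM in replicates 1, 2 and 3 and was thus highest where Ikzf2 was lowest (adjusted p = 0.0109 in the same test). The log2 ratio of Ikzf2 to Foxp3 reads was -0.96, -0.99 and -1.36, and that of Ikzf4 to Foxp3 was -1.65, -1.60 and -1.77. Ctla4, an inhibitory receptor of these cells, had 71.5, 70.5 and 73.2 CPM, and the 10 regulatory T cell genes listed summed to 1735, 1723 and 1784 CPM. Il2ra alone gave 794, 824 and 829 CPM of that sum, while Nrp1 and Itgae had means of 12.4 and 13.4 CPM. Whether these reads came from regulatory T cells or from other T cells was not tested. Of the 10 regulatory T cell genes, 4 differed between the libraries, against 13.7% of all tested genes, and 3 were lowest in replicate 3, against 34.8%. The 4 were Foxp3, Il2ra, Tnfrsf4 and Lrrc32. Among genes of like level the share that differed ranged from 16.9% (50 to 100 CPM, Lrrc32) to 77.7% (800 CPM and above, Il2ra). Beside Ikzf3, the 12 B cell markers summed to 25.1, 21.2 and 22.4 CPM, lowest in replicate 2. Of the 8 that were tested, 0 differed between the libraries and 2 were lowest in replicate 3, against 34.8% of all tested genes. Their part in the Ikzf3 difference was not tested. The nuclear RNA Malat1 was also lowest in replicate 3, with 1781, 1600 and 1364 CPM in replicates 1, 2 and 3, and its relation to Ikzf2 and Ikzf3 was not tested.

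**Figure D4:**
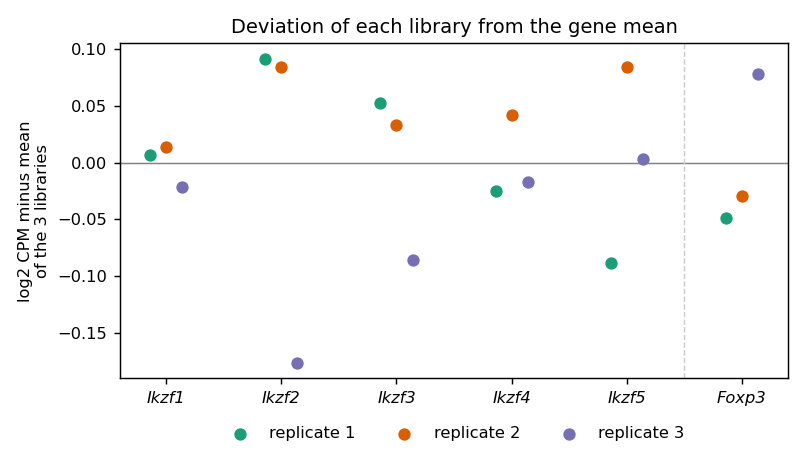
Deviation of each library from the mean of the 3 libraries (vertical axis, log2 CPM) for the 5 family genes and, right of the dashed line, Foxp3; points are replicates 1, 2 and 3. Ikzf2 and Ikzf3 are lowest in replicate 3, where Foxp3 is highest.

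The genes nearest to each member in read level over the 3 libraries were found by the largest absolute difference in log2(CPM + 1). They were Numa1 (0.006) and Brd2 (0.04) for Ikzf1, B230219D22Rik (0.06) and Slfn8 (0.07) for Ikzf2, and Tnfaip3 (0.03) and Ptpn11 (0.03) for Ikzf3. For Ikzf4 they were Psmd5 (0.02) and Ccdc137 (0.02), and for Ikzf5 Zbtb24 (0.02) and Gys1 (0.03). With 3 libraries of 1 group, this describes nearness of level.

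Ikaros proteins act through partner complexes, and the genes of these were present with 1 exception. Of 37 partner genes in 5 lists, 36 were at or above 1 CPM and 21 at or above 100 CPM, against 30.2% and 5.74% of all genes, and their median was 121 CPM against 26.9 CPM for all genes of at least 1 CPM. Per kb of merged exons their median was 21.7 CPM per kb, against 8.36 CPM per kb. All 13 NuRD genes were above 1 CPM. Chd4, the ATPase of NuRD that Ikaros binds, had 1226, 1227 and 1189 CPM, which per kb of merged exons (151 CPM per kb) was above Ikzf1 itself. Mta2 followed in reads at 377 ± 8.96 CPM, Chd3 at 347 ± 11.03 CPM and the histone chaperone Rbbp7 at 289 ± 5.89 CPM (SD, n = 3).

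The deacetylase genes Hdac2 and Hdac1 stood at 17.0 and 6.19 CPM per kb of merged exons, both below the NuRD median of 30.4 CPM per kb and both named after their values were seen. Sequence shared with other genes was examined for the family members only, so low levels of partner genes were not checked for reads lost in this way. Among the corepressors, Ctbp1, the C-terminal binding protein through which Eos acts on Foxp3-repressed genes, stood at 237 ± 6.79 CPM. Its paralog Ctbp2 was the exception, with 2, 3 and 6 reads. The Sin3 scaffolds Sin3a and Sin3b were at 147 ± 1.11 and 106 ± 4.32 CPM. All 9 SWI/SNF genes were at or above 1 CPM and 4 at or above 100 CPM, against 30.2% and 5.74% of all genes. These 4 were the ATPase Smarca4 (506 ± 9.31 CPM), Arid1a (452 ± 5.78 CPM), Smarcc2 (195 ± 6.11 CPM) and Smarcc1 (191 ± 6.87 CPM).

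**Figure D5:**
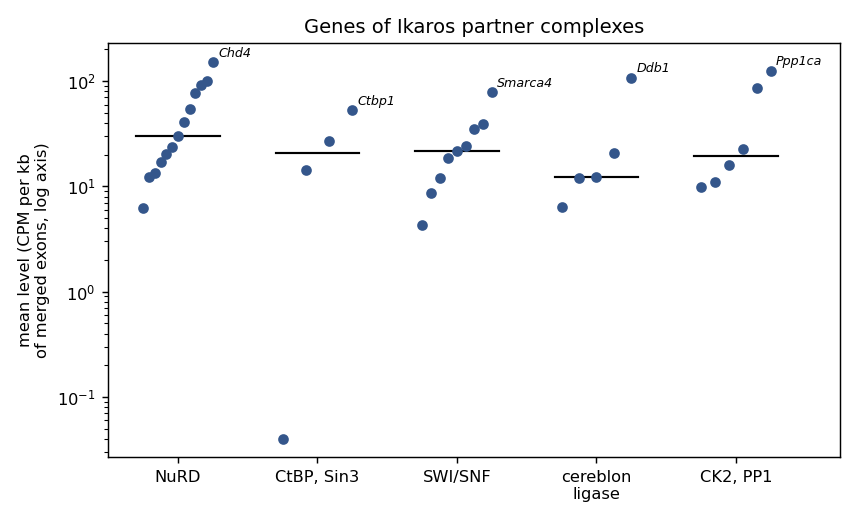
Mean level per kb of merged exons (vertical axis, CPM per kb, log scale) of each gene in 5 lists of Ikaros partners; each point is a gene and each line the median of its list. Chd4 leads NuRD at 151 CPM per kb, and Ctbp2 lies at 0.0402 CPM per kb.

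The cereblon ubiquitin ligase, which degrades IKZF1 and IKZF3 in human cells given lenalidomide, was present in all 5 subunits. Its adaptor Ddb1 had 690 ± 11.4 CPM, and the scaffolds Cul4b and Cul4a had 81.0 ± 2.27 and 79.4 ± 2.33 CPM (SD, n = 3). Cereblon itself (Crbn), the substrate receptor, had 83.4, 93.1 and 77.7 CPM in replicates 1, 2 and 3, and differed between the libraries (adjusted p = 0.00214, edgeR's likelihood-ratio test). Of 6 genes of enzymes that phosphorylate or dephosphorylate Ikaros, 6 were at or above 1 CPM and 4 at or above 100 CPM, against 30.2% and 5.74% of all genes. The phosphatase subunit Ppp1ca (317 ± 1.204 CPM) and the casein kinase subunit Csnk2b (178 ± 7.07 CPM) led in reads, with Ppp1cb at 121 ± 2.95 CPM and Csnk2a1 at 113 ± 2.47 CPM. Of 36 partner genes tested, 4 differed between the libraries, against 13.7% of all genes and 26.2% of genes between 100 and 200 CPM, where the partners' median lies. Besides Crbn these were Mbd3, Chd3 and Ppp1cc, with adjusted p = 0.00458, 0.0462 and 0.0361; Mbd3 and Ppp1cc were named after their values were seen.

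Genes that Ikaros family members are reported to regulate included both abundant and nearly unread ones. Of 16 such genes, 9 were at or above 1 CPM and 3 at or above 100 CPM, against 30.2% and 5.74% of all genes. Their median was 10.9 CPM, against 0.0175 CPM for all genes and 26.9 CPM for all genes of at least 1 CPM. Cd4 (376 ± 11.2 CPM), the survival gene Bcl2 (170 ± 3.68 CPM), Cd8a (143 ± 2.65 CPM) and the Th1 regulator Tbx21 (84.8 ± 3.03 CPM) had the most reads. Il2, the cytokine gene that Ikaros and Aiolos restrain, had 24.8, 20.3 and 22.2 CPM. Of the 9 targets tested between the libraries, 1 differed, against 13.7% of all tested genes. It was Cd4, with 364, 377 and 387 CPM in replicates 1, 2 and 3 (adjusted p = 0.0113, edgeR's likelihood-ratio test). In its level class, 200 to 400 CPM, 37.2% of genes differed. Il2 did not pass in the same test (adjusted p = 0.138). The cytokine gene Il10 stood at 4.15 ± 0.206 CPM.

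The other 7 were under 1 CPM. Ptcra, Rag2 and Igll1, which belong to thymocytes or B cell precursors, had no read in any library. Rag1 had 8, 2 and 2 reads, and Dntt and Vpreb1, also of lymphocyte precursors, were at 0.0227 ± 0.0392 and 0.228 ± 0.199 CPM (SD, n = 3). The Notch target Hes1 was at 0.0402 ± 0.0356 CPM, whereas Dtx1, another gene of the Notch pathway, was at 27.8 ± 0.913 CPM.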

How the data were processed

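The deposited table gives whole-number read counts by gene symbol, with a column for each library. The submitters' processing notes name mm10 as the build, while the aligner, counter, annotation, strand use and handling of reads with several matches are not stated in the sources used here. Levels are CPM of the column total with the SD over 3 libraries. With 1 group, edgeR's quasi-likelihood test was not applicable. Genes reaching 1 CPM in 2 or more libraries entered a test between libraries with edgeR 4.0.16 (glmFit, dispersion 0, likelihood-ratio test, TMM, Benjamini-Hochberg over all genes tested), after a check on simulated counts. Ratios had 0.5 added to each count. Intervals cover counting error only.

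Positions, lengths, finger sequences and shared 31-mers came from GENCODE M21 (GRCm38, which mm10 denotes), with fingers found by cysteine and histidine spacing. No gene-level count separates Ikaros isoforms. The members and the 16 lists (164 entries, 163 in the table, 3 under an older symbol) were chosen with earlier results of these data known. Named were all members, at most 4 genes of each partner list with the highest CPM and those under 1 CPM, the 2 nearest genes of each member, and genes chosen after their values were seen (those marked so, single cell type markers, Malat1, Il2, Il10 and Dtx1); transcription factors were named as neighbours per kb, where the rule asked for neighbours by CPM. The level-matched shares were also added after seeing the data. DESeq2 1.42.0 gave alternative size factors. R 4.3.3, Python 3.11.15, pandas 2.3.3, scipy 1.17.1 and Biopython 1.88 were used. Some items are not reported here.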

Additional observations from a re-analysis of the deposited data

How the results depend on the processing

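No paired analysis was possible because only 1 group exists. Leaving mitochondrial, ribosomal protein and pseudogene rows out of the total (15.7% of reads) raised every level by a like factor, to 629 CPM for Ikzf1, 94.1 for Ikzf2, 269 for Ikzf3, 63.2 for Ikzf4 and 40.6 for Ikzf5. Per kb of merged exons the shares of the family became 65.9% for Ikzf1, 4.90% for Ikzf2, 18.6% for Ikzf3, 6.38% for Ikzf4 and 4.29% for Ikzf5. The log2 ratio of Ikzf2 to Ikzf4 reversed to -0.39 per kb of merged exons and to -0.28 per kb of the longest transcript. With a library left out, the number of genes that differed was 740 to 1192, against 1850, the adjusted p of Ikzf2 was 0.000253 to 0.98 and that of Ikzf3 was 0.00305 to 0.858, each highest without replicate 3. TMM or DESeq2 scaling, unscaled totals, both other filters and 0.1 added to each count changed no call or direction of the members, and 36 partner genes were present at 5 CPM as at 1 CPM. Depth limits statements on genes of a few reads, such as Ctbp2 and Rag1.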
